A study of Mus musculus with 24 samples.

Results

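Prkcd, Tcf7l2, Lef1, Rora, Zic1, Slc17a6 and Plekhg1, 7 of the 49568 gene symbols counted in these libraries, are genes expressed in thalamic neurons, and they were measured here in dissected hippocampus. They were chosen by their read counts, which were high in library 12, from a standard-housed WT mouse, so the level of library 12 against the rest is given as a description, without a test. The study sequenced poly-A RNA of whole hippocampus from male mice that carried active MSK1 (WT) or MSK1 made kinase-dead (KD) by an aspartate-to-alanine change in the endogenous gene, both on a C57-Bl/6J background and labelled as 12 weeks old. Each genotype was kept in standard housing (SH) or reared from birth in an enriched environment (EE), large cages with a running wheel, toys and a ladder, with 6 libraries in each of the 4 groups. Libraries 33B and 34B, which failed the quality control of the study, were left out. This left 22 of 24 libraries, with 6 in each SH group and 5 in each EE group. The study removed 5 of these 22 for poor correlation within their group, and library 12 was among them. The labels name a hippocampus for each library but do not say whether each came from a separate mouse, so p-values measure the spread between libraries.

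The thalamus lies directly beneath the hippocampus and passes sensory and motor signals to the neocortex. Its relay nuclei hold glutamatergic neurons that load transmitter into vesicles with VGLUT2, the product of Slc17a6, whereas hippocampal pyramidal and granule cells mostly use VGLUT1, the product of Slc17a7. Thalamic neurons keep Tcf7l2, a DNA-binding partner of β-catenin in Wnt signaling, into adult life, together with Lef1 and the nuclear receptor Rora. The habenula and the reticular nucleus are neighboring diencephalic structures with markers of their own.

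The 22 libraries held between 8911999 and 56752074 counts on genes, and library 12 held 23836532. Fragments outside single genes made up 14.05% to 18.6% of each library, and mitochondrial genes took 3.73% to 7.17% of the counts on genes. Levels are given as CPM, counts per 1000000 counts on genes after TMM scaling, a scaling that evens out differences in composition between libraries. Markers of hippocampal neurons were present in library 12. Fibcd1 (CA1) was at 167 CPM, Grik4 (CA3) at 62.9 CPM and Prox1 (dentate gyrus) at 106 CPM, each within the range of the other 21 libraries. Summed marker lists lay outside the range of the other WT SH libraries but within that of the other 21. The summed dentate gyrus list was at 264 CPM in library 12, and at 281 to 337 CPM in the other WT SH libraries. The CA1 list was at 621 CPM against 663 to 748 CPM there, and the CA3 list at 305.2 CPM against 280.1 to 304.6 CPM. The other 21 libraries spanned 186 to 372 CPM for dentate gyrus, 513 to 748 CPM for CA1 and 234.8 to 306.8 CPM for CA3. Rps6ka5, which encodes MSK1, was at 22.4 CPM in library 12 and at 19.3 to 29.0 CPM in the other 21, and as the kinase-dead allele is a point change, this level does not check the genotype. In bulk tissue, fewer cells of a type and less RNA per cell cannot be told apart.

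All 7 genes had their highest level of the 22 libraries in library 12, at 2.42 to 8.17 times the median of the other 5 WT SH libraries and 1.28 to 6.70 times the highest of the other 21. Of the 20845 genes with a mean of at least 0.1 CPM, 3.98% were likewise highest in library 12. By comparison, 3.07% were lowest there. As the 7 genes were picked for this pattern, their count is not a result beside that share. The plot of CPM by library and group shows each of them.

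**Figure D1:**
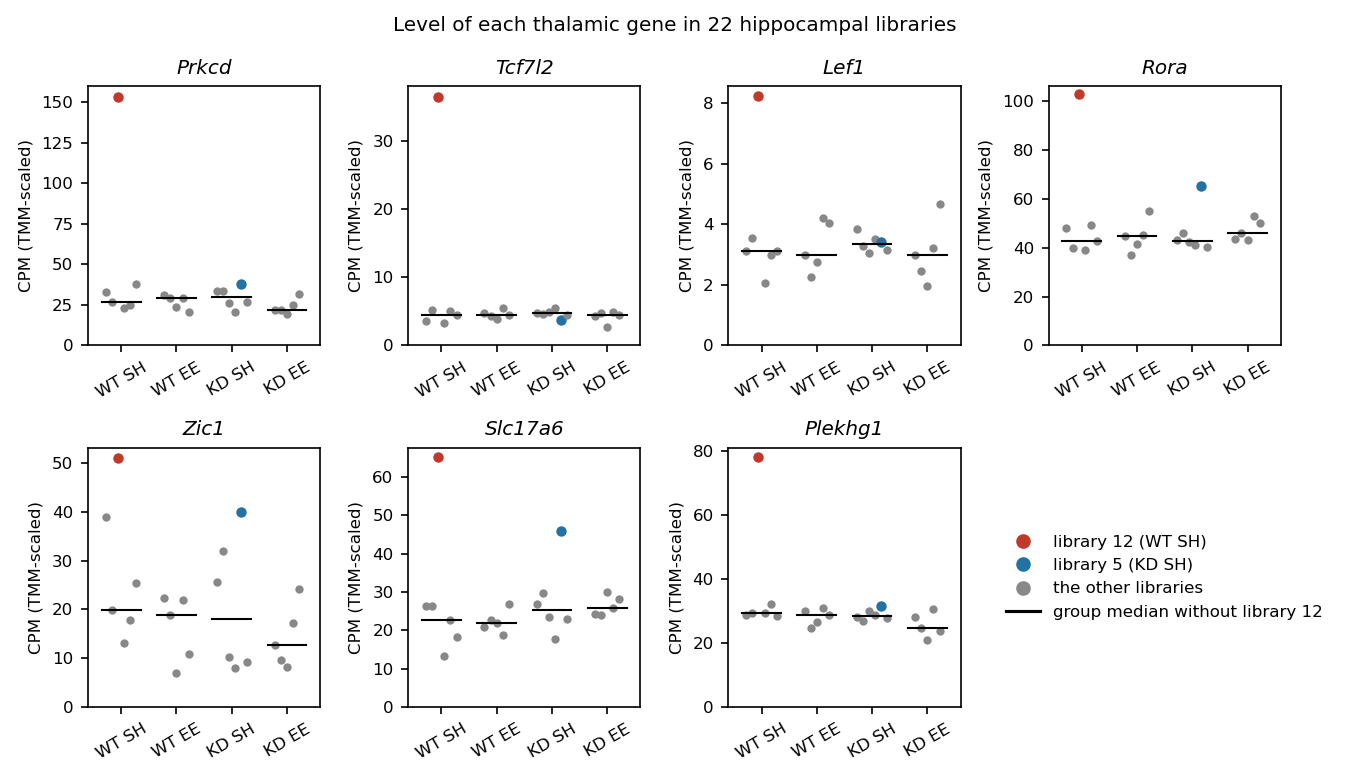
TMM-scaled CPM (vertical axis, linear from 0) of each of the 7 thalamic genes in 22 hippocampal libraries, in the 4 groups of genotype and housing (horizontal axis). Each point is 1 library, lines are group medians without library 12, and library 12 lies above all other points in all 7 panels, from 1.28 times the next library for Zic1 to 6.70 times for Tcf7l2.

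Among the transcription factors, Tcf7l2 (ENSMUSG00000024985, chr19:55741820-55933654 on GRCm38, plus strand) stood furthest from the rest. It was at 36.5 CPM in library 12, from 871 counts (exact 95% Poisson interval 34.1 to 39.0 CPM, which covers counting error only). The other WT SH libraries held 3.36, 3.63, 4.46, 5.05 and 5.23 CPM. The WT EE libraries held 3.95, 4.34, 4.51, 4.73 and 5.44 CPM. In KD SH, the lowest, median and highest were 3.67, 4.70 and 5.44 CPM. The KD EE libraries held 2.63 (library 9, the lowest of the 22), 4.29, 4.53, 4.73 and 4.90 CPM. Library 12 therefore held 8.17 times the WT SH median of Tcf7l2, and on the log2 scale it lay 12.4 SDs of the other 21 libraries above their mean, the greatest distance of the 7 genes.

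Lef1 (ENSMUSG00000027985, chr3:131110471-131224356, plus strand), the relative of Tcf7l2 that binds the same DNA core, was the gene of lowest level of the 7. Library 12 held 8.24 CPM (interval 7.13 to 9.48 CPM, from 197 counts), and the other WT SH libraries held 2.05, 2.99, 3.11, 3.12 and 3.54 CPM. The highest of the other 21 was library 36A (KD EE) with 4.67 CPM, so that library 12 exceeded it 1.77-fold, and the lowest was library 9 (KD EE) with 1.97 CPM. Annotated genes on the opposite strand overlap Lef1 (Gm43352), Rora (Gm15511), Zic1 (Zic4) and Plekhg1 (Gm16148, Gm16149 and Gm23023). Others on the same strand overlap Tcf7l2 (Ppnr), Lef1 (Gm42449) and Slc17a6 (Gm45072). The reads were counted without strand. Fragments that overlapped more than 1 gene were set aside as ambiguous, so the counts rest on the bases of each gene that no annotated partner shares.

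Because Tcf7l2 and Lef1 bind a shared DNA core, the 250 bases upstream of each annotated start of the 7 genes were searched for it, in RefSeq promoter windows on GRCm38.p6. The first word searched, on both strands, was CTTTGAA. The second was CTTTGAT. The third was CTTTGTA, and the fourth was CTTTGTT. All 7 genes matched a window, 13 windows in all, and 3 of the 13 held a word, compared with 14.8% of the 32851 windows of all genes. The 3 matches follow in the orientation of the gene, to show where in a window each word falls, with up to 50 bases on each side and the word in capitals. Its first base lies 147 bases before the start for Lef1, 242 for Prkcd and 14 for Tcf7l2. Each belongs to a start within the annotated span of its gene and not to the outermost start.
Lef1, chr3:131156097-131156203, plus strand: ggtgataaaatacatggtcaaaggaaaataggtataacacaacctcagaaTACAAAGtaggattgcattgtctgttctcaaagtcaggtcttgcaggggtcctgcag
Prkcd, chr14:30610496-30610560, minus strand: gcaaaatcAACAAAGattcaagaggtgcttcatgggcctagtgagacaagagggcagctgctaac
Tcf7l2, chr19:55895257-55895320, plus strand: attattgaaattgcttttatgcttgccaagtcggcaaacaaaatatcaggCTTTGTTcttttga
None of these bases falls in an annotated exon of its own gene. A match of letters is a description and shows no binding.

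Rora (ENSMUSG00000032238, chr9:68653786-69388246, plus strand), the retinoic acid receptor-related orphan receptor alpha, was at 103 CPM in library 12 (interval 98.9 to 107 CPM, from 2459 counts). The other WT SH libraries held 39.0, 40.0, 42.5, 48.2 and 49.4 CPM. Library 5 (KD SH) was next with 65.2 CPM, apart from the other 5 KD SH libraries, whose highest was 45.9 CPM. Rora was thus raised in library 12 by 2.42-fold over the WT SH median, the smallest such ratio of the 7 genes, but 6.32 SDs above the mean of the other 21, since it varied little between them.

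Zic1 (ENSMUSG00000032368, chr9:91358058-91365810, minus strand), a zinc-finger factor of the midline brain that is also made in meningeal cells, varied more than the rest among the other libraries. Library 12 held 51.1 CPM (interval 48.2 to 54.0 CPM, from 1220 counts), and the other WT SH libraries held 13.2, 17.8, 19.9, 25.5 and 39.0 CPM. The WT EE libraries held 6.90, 10.8, 18.9, 22 and 22.3 CPM, the KD SH libraries had a lowest, median and highest of 8.04, 17.97 and 40.0 CPM, and the KD EE libraries held 8.21, 9.53, 12.7, 17.1 and 24.2 CPM. Zic1 therefore spread widely within every group, library 12 was only 1.28 times the next library (5), and its distance of 2.14 SDs was the smallest of the 7.

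The enzyme and transporter of the set were both abundant. Prkcd (ENSMUSG00000021948, chr14:30595354-30626210, minus strand) encodes PKCδ, a calcium-independent protein kinase C activated by diacylglycerol. It was at 153 CPM in library 12 (interval 148 to 158 CPM, from 3660 counts). The other WT SH libraries held 23.3, 24.9, 27.0, 32.7 and 38.1 CPM. The WT EE libraries held 20.3, 23.7, 29.1, 29.5 and 30.8 CPM, the KD SH libraries had a lowest, median and highest of 20.4, 30.1 and 37.6 CPM, and the KD EE libraries held 19.6, 21.5, 21.7, 24.7 and 31.5 CPM. No other library came within a factor of 4.02 of library 12, while the 21 others differed from lowest to highest by 1.94-fold.

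Slc17a6 (ENSMUSG00000030500, chr7:51622006-51671119, plus strand), the vesicular glutamate transporter of thalamic and other subcortical neurons, was at 65.2 CPM in library 12 (interval 62.0 to 68.5 CPM, from 1557 counts). The other WT SH libraries held 13.4, 18.4, 22.6, 26.2 and 26.3 CPM, and library 5 (KD SH) held 46.0 CPM, the highest of the other 21. Per kilobase of annotated exon, Slc17a6 reached 4.66% of the level of Slc17a7 in library 12, and 0.910% to 4.21% (median 1.75%) in the other 21. This ratio of RNA levels was highest in library 12, by a narrow margin over the next library. Slc17a6 was chosen for its high counts in library 12, so the rank of the ratio is a description.

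Plekhg1 (ENSMUSG00000040624, chr10:3740364-3967303, plus strand), a guanine nucleotide exchange factor for small GTPases with a pleckstrin homology domain, was at 78.1 CPM in library 12 (interval 74.6 to 81.8 CPM, from 1867 counts). The other WT SH libraries held 28.3, 28.6, 29.3, 29.4 and 32.02 CPM. It was the steadiest of the 7 among the other 21, from 20.8 to 32.02 CPM, and library 12 lay 9.98 SDs above their mean.

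When compared per kilobase of exon, a scale on which genes of different length can be set side by side, the order of levels in library 12 was Prkcd at 27.6, Slc17a6 at 12.1, Zic1 at 8.97, Plekhg1 at 8.94, Rora at 7.87, Tcf7l2 at 4.15 and Lef1 at 0.938 CPM per kb. The medians of the other 21 libraries were closer together, with Prkcd at 4.83, Slc17a6 at 4.46, Rora at 3.33, Plekhg1 at 3.27, Zic1 at 3.12, Tcf7l2 at 0.517 and Lef1 at 0.355 CPM per kb. Neighbors in this order, Zic1 and Plekhg1 in library 12, and Prkcd with Slc17a6 or Rora with Plekhg1 and Zic1 in the rest, did not differ beyond the counting error or the spread between libraries. Tcf7l2, low in the other libraries, showed the largest ratio, whereas Prkcd showed the largest difference, 22.8 CPM per kb.

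Genes of the thalamic relay nuclei outside the 7 were taken from a list of 16, written with earlier results of these data known. The counts that follow are therefore a description. Of the 15 with a mean of at least 0.1 CPM, 13 were highest in library 12, beside 3.98% of all 20845 such genes. The mean log2 level of the list in library 12 lay 1.80 above the median of the other 21 libraries, whose highest (library 5) lay 0.46 above it. The homeobox gene Shox2 was at 15.03 CPM in library 12 and at no more than 0.65 CPM elsewhere. Tnnt1 (a troponin T) was at 16.7 CPM against at most 2.38, Synpo2 (an actin-associated protein) at 45.7 against at most 9.78, and Ramp3 (a receptor activity-modifying protein) at 22.5 against at most 5.24. The homeobox gene Gbx2, which is required for thalamic development, was below the mean of 0.1 CPM, with 33 counts (1.38 CPM) in library 12 and 0 to 5 counts in the others.

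The relay genes were not equally raised in library 12. Rgs16 (a regulator of G protein signaling) was at 21.1 CPM against a highest of 8.42, Slitrk6 at 3.98 against 1.38, and Amotl1 at 94.3 against 41.7. The relay genes with the highest levels in the other libraries had smaller ratios, with Ntng1 (netrin G1) at 80.8 CPM against a highest of 57.8, Adarb1 (an RNA-editing deaminase) at 329 against 237, Cacna1g (a T-type calcium channel) at 151 against 122 and Ptpn3 at 102 against 81.5. Plcb4 was at 65.5 CPM with 50.1 in library 5, and Foxp2 at 6.65 with 5.89 in library 14. Calb2 (calretinin) at 43.9 CPM and Lhx9 at 17.8 CPM were not highest in library 12, where their levels lay below 60.0 CPM in library 2 and 19.6 CPM in library 14.

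**Figure D2:**
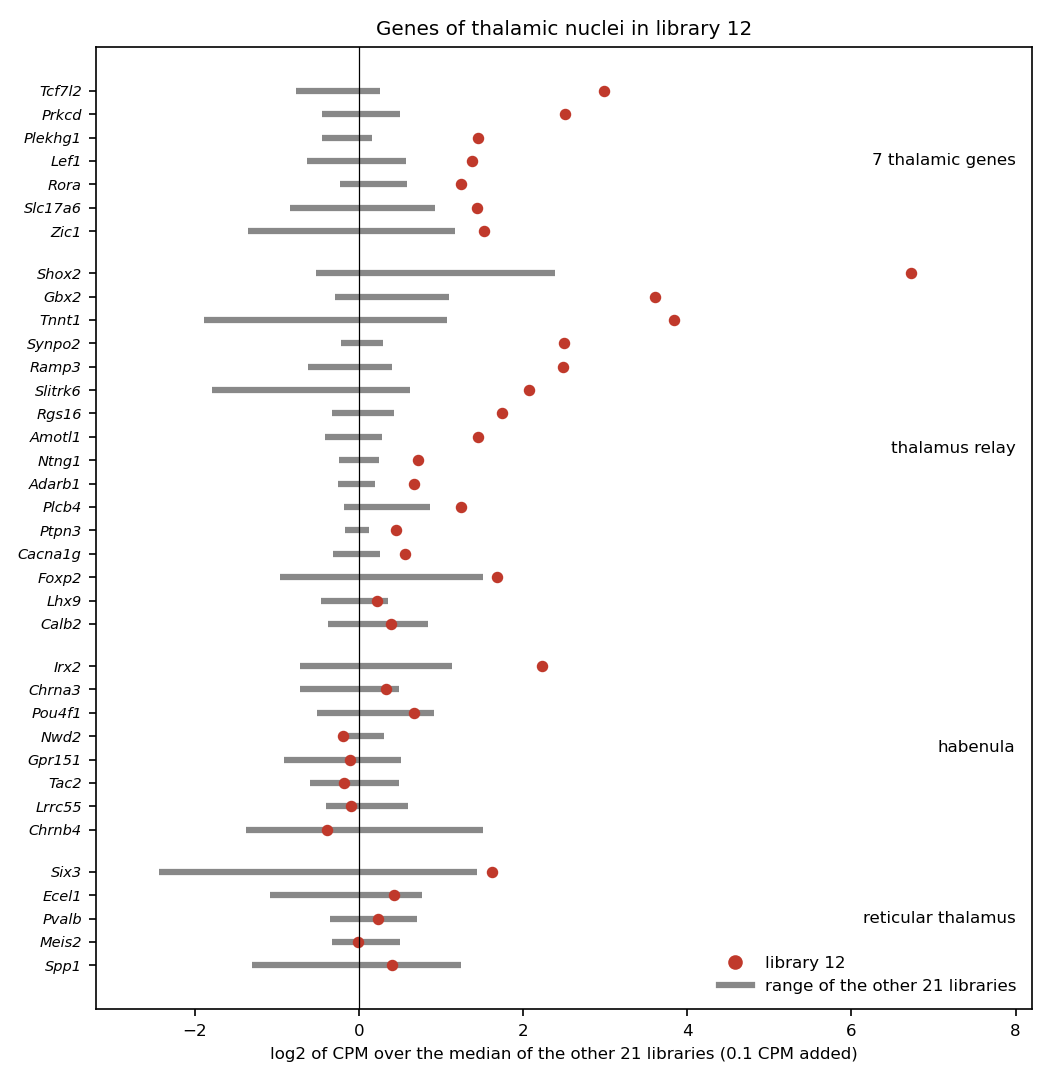
Log2 ratio of CPM to the median of the other 21 libraries, with 0.1 CPM added (horizontal axis). Rows are the 7 thalamic genes and the genes of 3 lists written with earlier results known (vertical axis). Points are library 12 and bars the range of the other 21; points lie beyond the bars for all 7 genes and for 13 of 15 measured relay genes, and within them for the 6 measured habenular genes.

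The markers of neighboring nuclei were mostly within the range of the other libraries. Of the 8 habenular genes, 6 had a mean of at least 0.1 CPM and 0 of the 6 were highest in library 12, which ranked 16 of 22 by the mean of the list. Tac2, a tachykinin of the medial habenula, was at 2.97 CPM in library 12 and at 2.22 to 4.80 in the others, and Gpr151, an orphan receptor of habenular neurons, was at 0.71 CPM against 0.37 to 1.15. Irx2, below the mean of 0.1 CPM, had 16 counts (0.67 CPM) in library 12 against at most 0.26 CPM. Of the 5 genes of the reticular nucleus, Six3 was highest in library 12, with 3.39 CPM against 2.97 in library 36A, and the other 4 (Ecel1, Spp1, Meis2 and Pvalb) were not. The mean of this list was nevertheless highest in library 12, 0.57 above the median of the others and 0.04 above the next.

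Relatives of the 7 genes showed which family members shared the pattern. Among 8 other protein kinase C genes, Prkch (PKCη, of the same calcium-independent class as PKCδ) was at 10.3 CPM in library 12 and at 2.14 to 3.86 CPM in the other 21, whereas Prkca, Prkcb and Prkci were lower in library 12 than in any other library. Prkca was at 256 CPM there and at 281 to 368 CPM elsewhere. Rorb, a relative of Rora expressed in layer 4 of neocortex and in thalamus, was at 21.4 CPM against a highest of 20.5.

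The remaining families stayed within the range of the other 21 libraries. Tcf7 and Tcf7l1, the other members of the TCF/LEF family, were at 3.01 and 4.77 CPM, against highest values of 3.70 and 5.12. Zic2, Zic4 and Zic5 were at 17.03, 6.57 and 5.06 CPM, each below the highest of the others, as were all 5 other PLEKHG genes measured. Slc17a8 (VGLUT3) was at 3.26 CPM against 2.74 to 5.58, and Slc17a7 at 1397 CPM against 1091 to 1539.

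The Wnt pathway in which Tcf7l2 and Lef1 act was examined as a list of 17 genes, also written with earlier results known. Its mean log2 level in library 12 was 0.01 above the median of the other 21, and 1 of 17, Nkd1 (a feedback inhibitor of the pathway), was highest in library 12, with 17.3 CPM against 16.2. Axin2, a target of β-catenin and TCF, was at 24.4 CPM against 20.3 to 27.96, and Ctnnb1 (β-catenin) was at 391 CPM against 307 to 403. Thus the levels of Tcf7l2 and Lef1 stood apart in library 12 while Axin2 and Ctnnb1 lay within the range of the other libraries.

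Lists of other regions and cell types were scored in the same way, as mean log2 level against the median of the other 21 libraries. Library 12 was the highest of the 22 for oligodendrocytes (0.36 above, with Mbp, Mog, Mag and Cnp each highest of 7 genes), for astrocytes (0.18 above, 1 of 6 highest, Agt at 46.1 CPM against 28.8, although the sum of the 6 was 0.959 times the median of the others) and for endothelium (0.15 above, 1 of 6 highest, Cldn5). Summed over the 7 oligodendrocyte genes, library 12 held 6918 CPM, compared with 5239 to 5874 in the other WT SH libraries, 4858 to 5381 in WT EE, 5093 to 6494 in KD SH and 4647 to 5673 in KD EE. Library 5 was the next highest for this list. Among the 21 libraries, the oligodendrocyte score correlated with Prkcd at 0.61 and with Zic1 at 0.52, and with the other 5 genes between -0.11 and 0.19. Other lists also had correlations of this size. The relay score correlated with Rora at 0.61 and Plekhg1 at 0.53, and the basal forebrain cholinergic score with Plekhg1 at 0.56. Those of choroid plexus, meninges, striatum and endothelium reached at most 0.43 with any of the 7. The part of the oligodendrocyte, astrocyte and endothelial lists in the levels of the 7 genes in library 12 was not tested.

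Of the hippocampal lists, those of dentate gyrus and CA1 were low in library 12, at 0.32 below the median (21 of 22, 0 of 5 genes highest) and 0.11 below (19 of 22), while that of CA3 was 0.07 above (7 of 22). The choroid plexus list, the most variable of all, was 2.87 above the median in library 12, but 7 libraries were higher. Its 10 genes summed to 1894 CPM in library 12, and to 58.1 to 804 CPM in the other WT SH libraries. The other groups reached 5362 CPM (WT EE), 2974 CPM (KD SH) and 5770 CPM (KD EE). The striatal list was 0.14 above (5 of 22), highest in library 14, the neocortical list 0.05 below (14 of 22), the midbrain list 0.03 below (14 of 22) and the hypothalamic list 0.39 above (4 of 22), in which Avp (vasopressin) was highest in library 12 at 2.18 CPM against 0.95. The basal forebrain gene Lhx8 was at 0 counts in library 12, which allows up to 0.126 CPM.

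The interneuron, ependymal, meningeal, basal forebrain cholinergic and newly formed oligodendrocyte lists stayed closer to the rest. They were, in this order, at the median, 0.05 below, 0.36 above, 0.27 above and 0.20 above it in library 12, and none of them had its highest score there. Enpp6 of the newly formed oligodendrocyte list was highest in library 12, at 13.8 CPM against 12.5. The plot of list scores shows that the relay list and the 7 genes stood furthest above the next library.

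**Figure D3:**
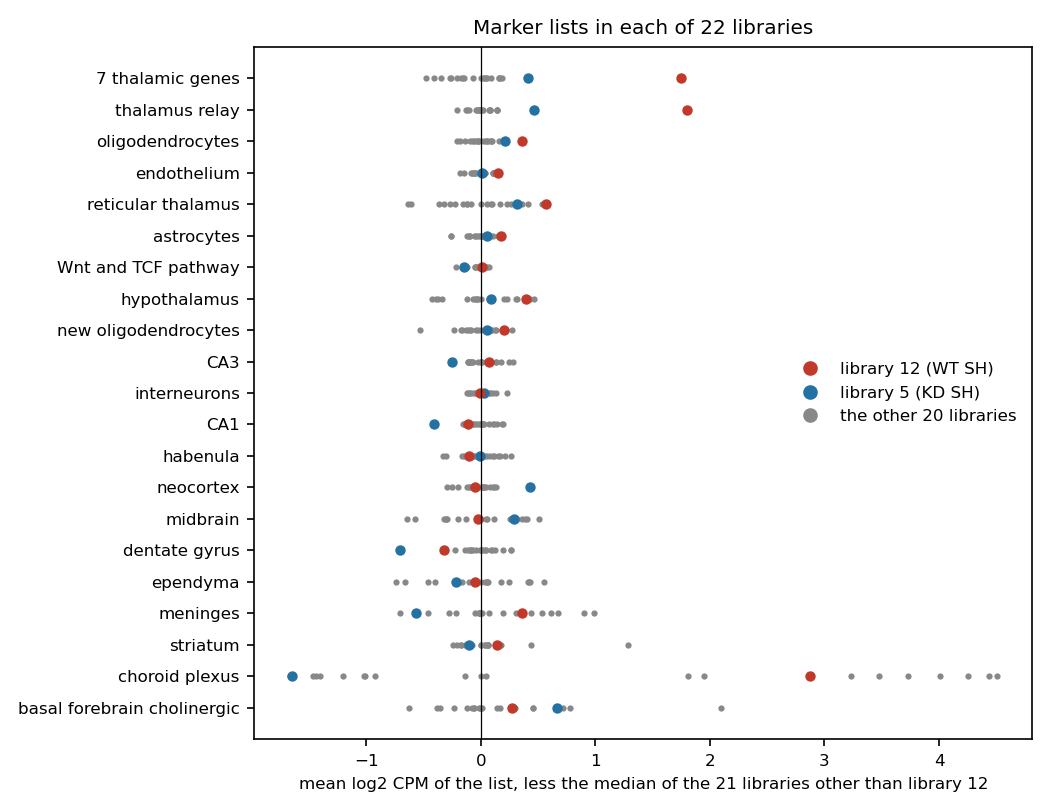
Mean log2 CPM of each marker list less its median over the 21 libraries other than library 12 (horizontal axis). Rows are the 7 thalamic genes and 20 lists written with earlier results known (vertical axis). Each point is 1 library; library 12 lies 1.75 above for the 7 genes and 1.80 above for the relay list, where library 5 is the next highest, while for choroid plexus 7 libraries lie above library 12.

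Across all genes, library 12 differed most from the rest in a small group. Of the 13612 genes with at least 50 counts in it, 31 exceeded 2 times the highest of the other 21, and 3 of the 7 (Tcf7l2, Prkcd and Plekhg1) were among them. The same count was 18 in library 9 and in library 35A, and 0 or 1 in each of the other 19. The 15 genes with the largest ratio were Shox2, Abhd12b, Fam19a4, Tnnt1, Tcf7l2, Vipr2, Wnt9b, Synpo2, Rab37, Ramp3, Prkcd, Endou, Patj, Grid2ip and Slitrk6. Of these 15, 2 belong to the 7 and 5 to the relay list. Vipr2, a receptor for vasoactive intestinal peptide, was at 8.16 CPM against at most 1.37, and the secreted ligand Wnt9b at 5.48 CPM against at most 1.01. Tcf7l2 ranked 5, Prkcd 11, Plekhg1 21, Lef1 36, Rora 46, Slc17a6 58 and Zic1 78 of the 13612 by this ratio.

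Outside library 12, the 7 genes varied less together. Over the 22 libraries, the 21 pairs of the 7 had Pearson correlations of log2 CPM between 0.42 and 0.93 (median 0.74), with 20 pairs over 0.5. Without library 12 they ranged from -0.20 to 0.86 (median 0.31), with 4 pairs over 0.5, namely Prkcd with Zic1 (0.86), Rora with Slc17a6 (0.66), Tcf7l2 with Lef1 (0.62) and Tcf7l2 with Plekhg1 (0.51). The 7 genes were picked for their high counts in library 12, so this fall comes with the choice and is a description. These correlations are descriptions over libraries that share 4 groups and differ in depth.

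Library 5, a KD SH library kept by the study, was the next highest after library 12 for Rora, Zic1 and Slc17a6 and second of the other 21 for Prkcd (37.6 CPM) and Plekhg1 (31.5 CPM). For Tcf7l2 it was among the low libraries (3.67 CPM) and for Lef1 it lay near the median (3.40 CPM). It was also the highest of the other 21 for 5 of the 15 relay genes, and it had the lowest dentate gyrus and CA1 scores and the highest neocortical score. With library 5 left out as well, a choice made after its values were seen, Rora and Slc17a6 correlated at 0.44 over 20 libraries, and 3 pairs remained over 0.5, with Prkcd and Zic1 at 0.83, Tcf7l2 and Lef1 at 0.66 and Tcf7l2 and Plekhg1 at 0.61.

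**Figure D4:**
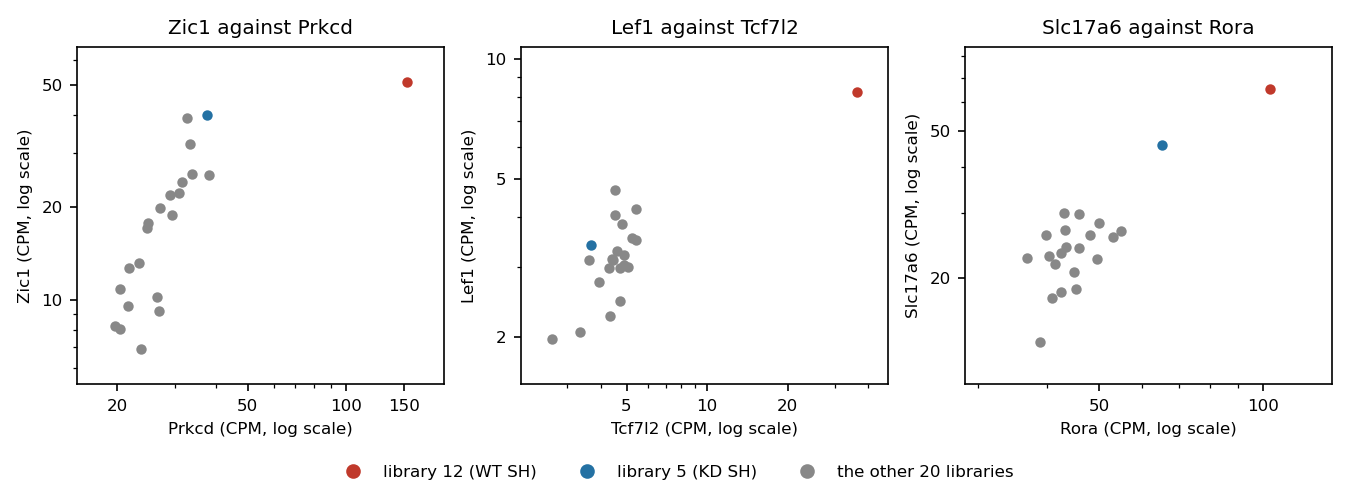
Levels of 3 pairs of thalamic genes in 22 libraries, as CPM on log axes, with each point 1 library. Library 12 is the point furthest to the upper right in each panel; without it the correlations of log2 CPM are 0.86 for Prkcd and Zic1, 0.62 for Tcf7l2 and Lef1 and 0.66 for Rora and Slc17a6, and library 5 lies next to library 12 in the third panel.

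The genes most like the mean of the 7 changed with library 12. Over the 22 libraries, of 15018 genes with a mean of at least 1 CPM, the 10 with the highest correlation were Synpo2 (0.88), Gm43398, Amotl1, Plcb4, Ramp3, Patj, Grid2ip, Epha8, Rab37 and Rgs16 (0.81), 5 of which belong to the relay list. Over the 21 without it, the 10 included Slc18a2 (0.84), Pcp4, Zic4, Zic2, Egln3, Gm43398, Pld5 and Col6a3 (0.79), and 0 of the 10 belong to the relay list. Zic1, the most variable of the 7 between those libraries with an SD of 0.76 on the log2 scale, weighs most in that mean, and Gm43398 was the gene common to both sets of 10.

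To ask whether housing or genotype changed the 7 genes, all genes were fitted together in the 17 libraries the study used, which do not include library 12. In these, Prkcd was at 29.2 ± 6.12 CPM (SD, n = 5) in WT SH, 29.8 ± 0.909 (n = 3) in WT EE, 29.0 ± 6.73 (n = 5) in KD SH and 24.8 ± 4.68 (n = 4) in KD EE. Tcf7l2 was at 4.35 ± 0.833, 4.84 ± 0.561, 4.64 ± 0.654 and 4.61 ± 0.264 CPM in the same order. The 4 groups overlapped for 6 of the 7 genes. The exception was Slc17a6, which was at 18.6 to 22.7 CPM in WT EE and at 24.1 to 28.3 CPM in KD EE. Over the 22 libraries, its WT EE levels reached 26.9 CPM (library 35A) and overlapped those of KD EE. The share of all genes without overlap was not counted.

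By the quasi-likelihood test of edgeR with Benjamini-Hochberg adjustment over 18701 genes, 0 of the 7 were called between WT EE and WT SH (adjusted p of 0.05 or less and a log2 fold change of at least 0.38 in size), where 3.55% of all genes were. Similarly, 0 of the 7 were called between KD EE and KD SH, where 1.74% of all genes were called, and 0 of the 7 between WT EE and KD EE, where 0.00535% were. In WT SH against KD SH and in the interaction of genotype and housing, edgeR called 0 genes, which is 0.0% of those tested, with 926 and 1031 genes at an unadjusted p under 0.05. In all 5 comparisons, 0 of the 7 had an unadjusted p under 0.05 in edgeR or in the Wald test of DESeq2. DESeq2 also called 0 of the 7, beside 2.13% of all genes for enrichment in WT, 1.18% for enrichment in KD, 0.00876% (3 genes) for genotype in standard housing, 0.0525% for genotype in enriched housing and 0.00584% (2 genes) for the interaction.

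The estimated changes with enrichment were small. In WT mice, Tcf7l2 and Prkcd had log2 fold changes of EE over SH of 0.17 ± 0.15 (SE, adjusted p = 0.697) and 0.03 ± 0.17 (adjusted p = 0.968), and the other 5 genes lay between -0.13 (Zic1) and 0.12 (Lef1). The median of the 7 was -0.05, beside 0.00 for all genes tested. In KD mice, the changes ranged from -0.20 ± 0.16 (adjusted p = 0.684) for Prkcd to 0.07 ± 0.12 (adjusted p = 0.879) for Rora. Choroid plexus markers moved with housing in these 17 libraries. The 10 genes of that list summed to 58.1 to 804 CPM in WT SH and 4170 to 5362 in WT EE, and to 38.0 to 181 CPM in KD SH and 1030 to 5770 in KD EE. Of the libraries left out of the 17, library 2 (KD SH) held 2974 CPM and library 12 (WT SH) 1894 CPM. Libraries 31B and 35A (WT EE) held 70.7 and 58.9 CPM, and library 9 (KD EE) 210 CPM. The part of these markers in the values that follow was not tested. Within the relay list, 1 of 14 genes tested rose with enrichment in WT mice (Ramp3, log2 fold change 0.61, adjusted p = 0.0362) and 1 of 14 fell (Lhx9, fell by 0.40, adjusted p = 0.0492), and 0 of 14 were called in KD mice, beside 3.55% and 1.74% of all genes. With library 12 added, Ramp3 turned to -0.48 (adjusted p = 0.789). Over the 21 libraries without library 12, Ramp3 was at 0.44 (adjusted p = 0.346) and Lhx9 at -0.37 (adjusted p = 0.269), and neither call held. In the interaction test neither gene was called (adjusted p = 0.875 for Ramp3 and 0.957 for Lhx9).

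In the other lists, counts of calls were again set beside 3.55% of all genes in WT and 1.74% in KD mice. In these, 1 of 6 habenular genes tested, Chrnb4, rose in WT mice (log2 fold change 1.94, adjusted p = 0.0105) and in KD mice (2.07, adjusted p = 0.0207), and 0 of 5 reticular genes were called in either. In the Wnt list, 1 of 16 genes tested, Rnf43, rose in WT mice (0.48, adjusted p = 0.0429) and 0 of 16 were called in KD mice. Over the 21 libraries, 0 genes were called in either comparison, these included, and Rnf43 was also not called with library 12 added.

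The largest differences between genotypes belonged to Zic1 and Slc17a6. In standard housing, the log2 fold change of WT over KD was 0.35 ± 0.36 for Zic1 (adjusted p = 0.905) and -0.34 ± 0.19 for Slc17a6 (adjusted p = 0.881). In enriched housing, they were 0.39 ± 0.44 (adjusted p = 0.923) and -0.32 ± 0.24 (adjusted p = 0.862). Zic1 was at 23.1 ± 9.94 CPM (SD, n = 5) in WT SH and 18.6 ± 13.95 (n = 5) in KD SH, and Slc17a6 at 21.4 ± 5.52 and 27.4 ± 10.9 CPM, so that both differences in standard housing lay within the spread between libraries. In enriched housing, Slc17a6 was at 20.7 ± 2.01 CPM (SD, n = 3) in WT and 25.7 ± 1.93 (n = 4) in KD. These libraries did not overlap, but the difference did not pass the test across all genes. Over the 22 libraries, WT EE (up to 26.9 CPM) and KD EE (from 24.1 CPM) overlapped.

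With library 12 added to the WT SH group, as 18 libraries, all 7 genes were lower in WT EE than in WT SH, and all 7 higher in WT SH than in KD SH. The genes were chosen by their counts in library 12, so these values show how far that library moves the estimates and are no test of the genes. The log2 fold change of WT EE over WT SH was -0.98 ± 0.55 for Tcf7l2, -0.74 ± 0.43 for Prkcd and -0.26 to -0.47 for the other 5. That of WT SH over KD SH was 1.03 ± 0.46 for Tcf7l2 and 0.79 ± 0.36 for Prkcd, and 0.07 to 0.61 for the rest. Its SE for Tcf7l2 rose from 0.13 to 0.46, and 0 of the 7 were called in any comparison, where 3.08% of 18747 genes were called between WT EE and WT SH, 1.61% between KD EE and KD SH, 0.00533% between WT EE and KD EE and 0.0% in the others. Against the 17 libraries, the sign changed for 3 of the 7 genes in the first comparison and for 4 of the 7 in the second.

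Over all 22 libraries the fold changes between WT EE and WT SH were again negative for all 7, from -0.21 for Lef1 to -1.06 for Tcf7l2, and over the 21 without library 12 they lay between -0.51 (Zic1) and 0.15 (Lef1). The edgeR test called 0 of the 7 and 0 of all genes (0.0%) in both sets, and 0 of the 7 had an unadjusted p under 0.05 in that comparison over the 21. The plot of fold changes by library set shows the shift for both comparisons.

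**Figure D5:**
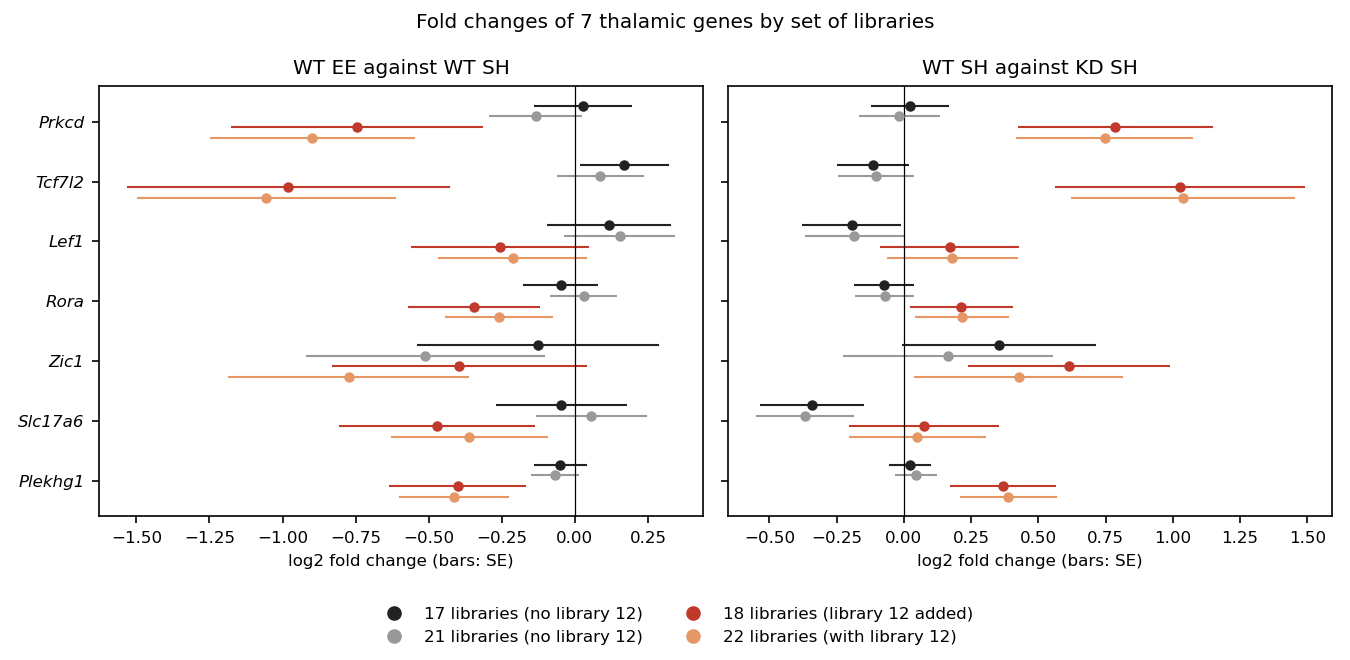
Log2 fold changes with SE (horizontal axes) of the 7 thalamic genes from the edgeR fits, for WT EE against WT SH (left) and WT SH against KD SH (right), with each color a set of libraries. In the sets without library 12, Tcf7l2 lies at 0.17 and 0.09 on the left, and in the sets with it at -0.98 and -1.06, with longer bars.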

How the data were processed

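RNA of whole hippocampus was sequenced as paired reads. The authors deposited raw counts for each gene symbol, made with HTSeq (unstranded, unique alignments) after trimming and alignment by STAR 2.5 on GRCm38. A further table of the authors, scaled with DESeq2, was not used. The 7 genes and all marker lists were chosen with earlier results of these data known. The genes named were the 7, their relatives, the thalamic lists, the 15 genes highest in library 12 relative to the others and the 10 most alike.

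Here, CPM were scaled by TMM over all genes of 22 libraries, with a prior of 0.1 CPM before logarithms. A floor of 3 counts stands for 0.0529 to 0.337 CPM, and intervals cover counting error only. Tests used the quasi-likelihood fit of edgeR 4.0.16 in R 4.3.3 (filterByExpr, TMM, 4 group means) on 17 libraries, adjusted by Benjamini-Hochberg, and were tested on simulated data. DESeq2 1.42.0 (Wald test), its size factors, other filters, other library sets and each library left out in turn were the alternatives. Gene positions came from GENCODE and promoters from RefSeq. Some results of the named lists are not reported here.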

Additional observations from a re-analysis of the deposited data

Results flagged for a closer look

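Within each group, the highest and lowest library of each of the 7 genes was compared with its neighbor by the gap over the range of the group (Dixon's criterion), and values far from the others are given here. In WT SH, library 12 was such a library for 6 of the 7 genes, at 153 CPM for Prkcd (next library 38.1), 36.5 CPM for Tcf7l2 (next 5.23), 8.24 CPM for Lef1 (next 3.54), 103 CPM for Rora (next 49.4), 65.2 CPM for Slc17a6 (next 26.3) and 78.1 CPM for Plekhg1 (next 32.02). The genes were picked for these values, so the 6 are a description. Zic1 in library 12 did not pass the criterion.

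In the other 3 groups, whose libraries did not choose the genes, 2 of 21 sets of values had such a library, and chance gives about 1 in 20. Rora in library 5 of KD SH was at 65.2 CPM, with 45.9 CPM in the next library, a gap of 0.782 of the range. Tcf7l2 in library 9 of KD EE, the library with the fewest counts, was lowest of its group at 2.63 CPM, with 4.29 CPM in the next, a gap of 0.730 of the range.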

How the results depend on the processing

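Under CPM without TMM factors, under the size factors of DESeq2 and within WT SH alone, all 7 genes remained highest in library 12. Across the 25 alternatives of the fits, 0 of the 7 genes were called in any of the 5 comparisons, and the lowest adjusted p of any of them was 0.306. The values near 0 changed sign easily: of 28 log2 fold changes followed in 4 comparisons, 20 had the other sign under some alternative, and the cause was not tested where no library of the group was added or left out.

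For WT EE over WT SH, the 18 libraries gave -0.74 for Prkcd, -0.98 for Tcf7l2 and -0.26 for Lef1, and the 22 libraries gave -0.90, -1.06 and -0.21. The 21 libraries without library 12 gave -0.13 for Prkcd, 0.030 for Rora and 0.056 for Slc17a6, and leaving out the lettered libraries gave -0.16 for Lef1 and 0.033 for Slc17a6. The lettered libraries, whose number ends in A or B, all come from enriched housing. Leaving them out makes the WT EE and KD EE groups smaller and no other, and letter and housing cannot be fully told apart. For WT SH over KD SH, the 18 libraries gave 1.03 for Tcf7l2, 0.17 for Lef1, 0.21 for Rora and 0.075 for Slc17a6, the 22 libraries gave 1.04, 0.18, 0.22 and 0.050, and the 21 libraries gave -0.017 for Prkcd. For KD EE over KD SH, the DESeq2 size factors gave 0.00047 for Lef1 and leaving out the lettered libraries gave -0.031 for Rora. For WT EE over KD EE, Lef1 was at 0.054 with the 22 and with the 21 libraries, and Tcf7l2 was at -0.0079 without the lettered libraries.

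With each of the 17 libraries left out in turn, the log2 fold change of WT EE over WT SH ranged from -0.051 to 0.14 for Prkcd, -0.17 to 0.29 for Lef1, -0.11 to 0.039 for Rora, -0.28 to 0.14 for Zic1, -0.19 to 0.039 for Slc17a6 and -0.12 to 0.040 for Plekhg1. That of KD EE over KD SH ranged from -0.068 to 0.056 for Tcf7l2, -0.22 to 0.13 for Lef1, -0.44 to 0.30 for Zic1 and -0.20 to 0.19 for Slc17a6. That of WT SH over KD SH ranged from -0.093 to 0.13 for Prkcd, -0.12 to 0.075 for Rora and -0.0061 to 0.054 for Plekhg1, and that of WT EE over KD EE from -0.039 to 0.13 for Tcf7l2 and -0.36 to 0.15 for Lef1. The library numbers are unique, and no paired analysis was possible because the groups share no replicate numbers. Groups of 3 to 5 libraries and the spread of Zic1 limit what could be detected, and Lef1 and Tcf7l2 had the fewest counts, down to 18 and 24 in library 9.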

Other observations

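Library 12 shared high levels of a set of predicted genes with library 13, another WT SH library. Gm10800 was at 609 CPM in library 12 and 352 CPM in library 13, and at no more than 16.1 CPM in the other 20 libraries. Gm10801 was at 47.6 and 23.3 CPM, against at most 1.14, and Gm21738 at 58.8 and 36.3 CPM, against at most 1.45. Gm26870, Gm10722 and Gm10717 showed the same pattern at lower levels. In library 12, these predicted genes and the 7 thalamic genes each had their highest level of the 22 libraries. In library 13, 6 of the 7 thalamic genes had their lowest level of WT SH, and the share of all genes lowest there was not counted. These genes were chosen after their values were seen, reads of near-identical copies cannot be told apart, and no test was made.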
